A study of Mus musculus with 4 samples.

Results

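The genes followed here, chosen by symbol, were 10 of the 32285 in the count tables. Cdkn1a, Cdkn1c and Cdkn2a encode inhibitors of cyclin-dependent kinases, and Mdm2, Ccng1, Bax, Phlda3, Gdf15, Eda2r and Trp53inp1 are known targets of the transcription factor p53, as is Cdkn1a. Single cells were taken from the tibialis anterior and gastrocnemius muscles of 2-month-old male mice, with 4 mice pooled per genotype. All mice carried the S100GFP-tg transgene, in which the S100B promoter drives eGFP, so that Schwann cells, among other cells, are green. The WT mice were S100GFP-tg with intact Sod1 (superoxide dismutase 1), and the Sod1KO mice were S100GFP-tg Sod1-/-, a model in which muscle fibers lose and regain innervation spontaneously at this age. Live cells were sorted by fluorescence into GFP+ and GFP- fractions, and each fraction of each genotype gave 1 droplet library, so that a genotype was represented by 1 library in each sort. No difference below has a replicate check, and none was tested.

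p53 is held at a low level by the ubiquitin ligase Mdm2, and DNA damage or other stress releases it to switch on genes that stop the cell cycle, repair DNA or trigger apoptosis. The inhibitors of the Cip/Kip family, p21 (Cdkn1a) and p57 (Cdkn1c), bind cyclin-CDK complexes, whereas p16, one of the products of Cdkn2a, binds Cdk4 and Cdk6. In peripheral nerve, myelinating Schwann cells (mSCs) are quiescent, and the terminal Schwann cells (tSCs) at the neuromuscular junction can reenter the cell cycle after denervation.

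The letters that p53 reads were looked up in the promoters, because most of the members are p53 targets. p53 binds a pair of decamers, and the decamer searched for was the p53 consensus on both strands (it reads the same on each), a full site being 2 decamers 0 to 13 bases apart. RefSeq windows of GRCm38.p6 from 250 bases before to 50 bases after a transcript start were at hand for 8 members (11 windows). A decamer lay in 4 of the 11 windows, 1 each of Cdkn1a, Bax, Mdm2 and Ccng1, against 8.36% of all 32851 windows, and a full site lay in 1 of the 11, that of Cdkn1a, against 0.0731% of all windows. The stretches holding them are printed 5′ to 3′ with the decamers in capitals, for Cdkn1a with a spacer of 12 bases (chr17:29090876-29090978, + strand, the decamers starting 73 and 51 bases before the start) and for Bax (chr7:45467060-45467129, - strand), Mdm2 (chr10:117710905-117710974, - strand) and Ccng1 (chr11:40755432-40755501, - strand) with 1 decamer each.
Cdkn1a: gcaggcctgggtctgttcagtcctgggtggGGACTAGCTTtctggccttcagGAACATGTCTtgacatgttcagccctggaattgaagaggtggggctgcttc
Bax: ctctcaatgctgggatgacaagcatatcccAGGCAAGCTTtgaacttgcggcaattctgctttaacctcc
Mdm2: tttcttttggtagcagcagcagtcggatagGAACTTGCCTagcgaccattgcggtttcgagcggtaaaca
Ccng1: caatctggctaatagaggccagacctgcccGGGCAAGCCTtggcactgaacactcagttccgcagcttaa
The other Cdkn1a window, around a start farther downstream (chr17:29093519-29093818), held no decamer, so the distances above hold for 1 of its starts. A match is a description of these letters, not a binding site. For that window and for Phlda3, Cdkn2a, Gdf15 and Eda2r the absence of one says only that these letters are not in the windows read. Known sites farther out or inside introns were not searched.

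In GRCm38.p6, Cdkn1a (ENSMUSG00000023067) spans 29090979 to 29100722 of chromosome 17 and Mdm2 (ENSMUSG00000020184) 117688875 to 117710758 of chromosome 10. Cdkn1c (ENSMUSG00000037664) spans 143458339 to 143461059 and Bax (ENSMUSG00000003873) 45461695 to 45466903 of chromosome 7, whereas Cdkn2a (ENSMUSG00000044303) spans 89274473 to 89294619 and Trp53inp1 (ENSMUSG00000028211) 11156441 to 11174379 of chromosome 4. Ccng1 (ENSMUSG00000020326) spans 40748552 to 40755309 of chromosome 11, Phlda3 (ENSMUSG00000041801) 135766085 to 135769134 of chromosome 1, Gdf15 (ENSMUSG00000038508) 70629393 to 70632470 of chromosome 8 and Eda2r (ENSMUSG00000034457) 97333837 to 97377234 of chromosome X. Cdkn1c overlaps the noncoding genes 4933417O13Rik, on the same strand, and Gm44732, and Ccng1 overlaps Nudcd2 on the other strand, so that reads of these pairs may be split uncertainly. The Cdkn2a products p16 and p19Arf share their 3′ exons and cannot be told apart in 3′ counts.

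The 4 libraries held 2052 to 7267 barcodes with 21959719 to 105954116 UMIs (counted RNA molecules) in all, and 1638 to 5925 cells per library were kept, with a median of 8019.5 to 14658 UMIs per cell. The WT GFP- library was the smallest and shallowest of the 4. Pairs of libraries shared 1 to 13 cell barcodes. Sod1 itself stood at 90.9 and 98.2 CPM (UMIs per 1000000 UMIs) in WT and Sod1KO GFP+ cells and at 124 and 113 CPM in GFP- cells. The labels and methods do not say which exons the Sod1- allele lacks, so these 3′ counts check no label, and Sod1KO below means the library labelled so. Clusters were named X-like from fixed markers, with the members and all related lists kept out of clustering, and 19.2% to 47.5% of a library's cells lay in clusters left unnamed. Red blood cell-like cells, with median counts of 1326.5 to 1868 UMIs and Cfd, Retn and Cidec (genes of fat cells) among their leading genes, are given beside shares of cells with a UMI as a class not known for the members. The level of free RNA was not measured.

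Summed over all kept cells, Cdkn1a was the most abundant member, with 102717 UMIs over the 4 libraries, followed by Cdkn1c with 53775, Phlda3 with 27895 and Bax with 24300. Mdm2 had 12544 UMIs, Gdf15 7089, Trp53inp1 5607, Ccng1 5465 and Eda2r 2112, and Cdkn2a had 311. These totals count 3′ ends and so rank molecules captured, not levels per length.

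The members were distributed over cell types in distinct ways. Cdkn1a was led by mSC-like cells, Phlda3 by perineurial-like cells, Gdf15 by lymphatic endothelial- and macrophage-like cells, Eda2r by lymphatic endothelial-like cells and Cdkn2a by tSC-like cells, whereas Mdm2, Ccng1 and Bax were detected in every class. The order of classes below is by the mean CPM over libraries with at least 50 cells of the class.

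**Figure D1:**
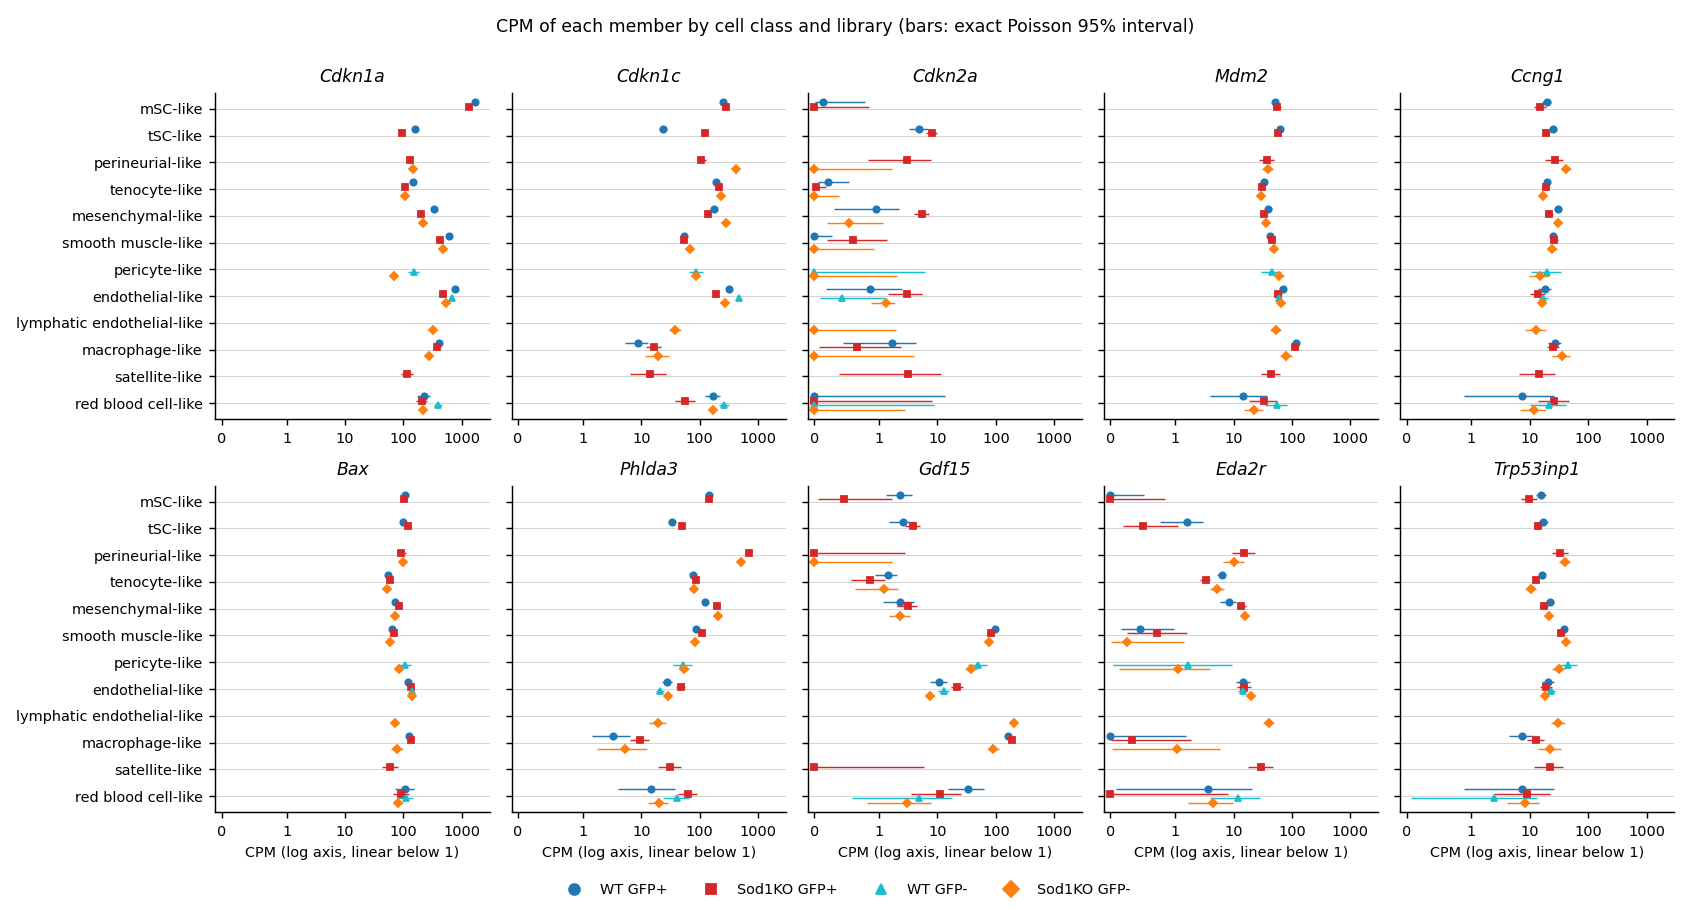
Level of each member in 12 cell classes (CPM, log axis that is linear below 1), 1 point per library with at least 50 cells of the class and bars for the exact Poisson 95% interval; colors mark the 4 libraries. Cdkn1a peaked in mSC-like cells (1344 and 1657 CPM), Phlda3 in perineurial-like cells (520 and 687 CPM) and Cdkn2a stayed below 8 CPM in every class.

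For Cdkn1a, which arrests the cycle through p21, mSC-like cells stood at 1657 CPM (95% interval, 1627 to 1687, 11747 UMIs in 1075 cells) in WT and 1344 CPM (1310 to 1379, 5917 UMIs in 657 cells) in Sod1KO, and 98.1% and 97.6% of them held at least 1 UMI of it. Endothelial-like cells followed at 471 to 767 CPM in the 4 libraries, and smooth muscle-like cells at 420 to 614 CPM in 3 libraries. These ranges overlapped each other, and both lay below every mSC-like value. Perineurial-, tSC-, tenocyte-, satellite- and pericyte-like cells formed the low end, at 67.9 to 157 CPM, with overlapping ranges. Red blood cell-like cells were at 206 to 393 CPM, but on 0.633 to 1.01 Cdkn1a UMIs per cell, against 10.9 and 9.01 in mSC-like cells and 2.51 and 1.19 in tSC-like cells of WT and Sod1KO. The share of tSC-like cells with a Cdkn1a UMI was 50.0% in WT and 36.6% in Sod1KO, and that of red blood cell-like cells 28.6% to 31% at a lower depth.

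Cdkn1c, an imprinted gene whose product p57 restrains growth, ranged from 192 to 480 CPM in endothelial-like cells, 250 and 283 CPM in mSC-like cells and 192 to 228 CPM in tenocyte-like cells. Perineurial-like cells of Sod1KO were at 107 CPM in the GFP+ and 418 CPM in the GFP- library, so that endothelial-, mSC-, perineurial-, tenocyte- and mesenchymal-like cells could not be ordered beyond their spread between libraries. Macrophage-like cells (8.62 to 19.1 CPM) lay below all of these. In satellite-like cells of the Sod1KO GFP- library, too few for the comparison, a single cell held 269 of the 299 Cdkn1c UMIs.

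Phlda3, whose product blocks membrane recruitment of the survival kinase Akt, reached 687 and 520 CPM in the perineurial-like cells of Sod1KO GFP+ and GFP-, above all other classes, which were led by mesenchymal-like cells at 124 to 204 CPM. The 42 perineurial-like cells of WT GFP+ stood at 734 CPM. Cluster 8, outside the named classes, was at 475 CPM in WT GFP+ and 486 CPM in Sod1KO GFP+. It held 34.9% and 30.5% of the Phlda3 UMIs of these libraries, against 3.61% and 7.48% in perineurial-like cells. Macrophage-like cells were lowest, at 3.28 to 9.59 CPM. Bax, the effector that permeabilizes the mitochondrial outer membrane in apoptosis, spanned 55.1 CPM (mean of 3 libraries) in tenocyte-like cells to 134 CPM (mean of 4) in endothelial-like cells. Most neighbors in that order overlapped. Trp53inp1, a stress-induced nuclear and autophagy protein, was highest in smooth muscle-like (33.7 to 41.8 CPM), pericyte-like (31.2 and 44.7 CPM) and perineurial-like cells (33.4 and 39.5 CPM), which overlapped, and was 9.77 and 15.5 CPM in mSC-like cells.

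Mdm2 ranged from 30.6 CPM (mean of 3 libraries) in tenocyte-like to 103 CPM in macrophage-like cells, and the other classes lay between them. In WT GFP+ macrophage-like cells 45 of the 286 Mdm2 UMIs came from 1 cell. Ccng1, encoding cyclin G1, which works with a phosphatase to act back on Mdm2, ran from 12.9 CPM in lymphatic endothelial-like cells to a mean of 34.3 CPM in perineurial-like cells.

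Gdf15, a secreted stress-response cytokine, was at 201 CPM in lymphatic endothelial-like cells of Sod1KO GFP-, where 1 cell held 112 of the 389 UMIs, at 90.4 to 188 CPM in macrophage-like cells and at 75.3 to 95.8 CPM in smooth muscle-like cells. It was low in Schwann cells, with 16 and 2 UMIs in the mSC-like cells of WT and Sod1KO, and no UMI was found in perineurial-like cells of Sod1KO. Eda2r, a receptor for the ectodysplasin isoform EDA-A2, was at 39.9 CPM in lymphatic endothelial-like cells of Sod1KO GFP- (31.5 to 49.8) and 29.8 CPM in satellite-like cells of Sod1KO GFP+ (17.9 to 46.5), where 1 cell held 9 of the 19 UMIs. These intervals overlapped, and endothelial-like cells were at 14.5 to 20.2 CPM. It was not detected in mSC-like cells of either GFP+ library, where 3 UMIs would have made 0.423 CPM in WT and 0.681 CPM in Sod1KO.

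The genotypes were compared within each class that had at least 50 cells in both libraries of a sort. A member was compared where its UMIs summed to at least 50 over both libraries, and called higher or lower at 1.5-fold, a rule of size and not a test. In mSC-like cells, 0 of 7 members compared were higher in Sod1KO (3.76% of 10320 genes) and 1 was lower, Trp53inp1 (4.35%). In tSC-like cells, 2 of 9 were higher, Cdkn1c and Cdkn2a (10.1% of 12017 genes), and 1 was lower, Cdkn1a (12.6%). In values given as a pair, WT stands first, and the parentheses hold the log2 ratio of Sod1KO over WT and then its 95% interval.

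Among the other GFP+ classes, tenocyte-like cells had 0 of 9 members higher (5.16% of 13380 genes) and 2 lower, Eda2r and Gdf15 (2.49%), and smooth muscle-like cells had 0 of 8 in either direction (7.50% of 11345 genes higher and 2.64% lower). Mesenchymal-like cells had 3 of 9 higher, Cdkn2a, Phlda3 and Eda2r (7.34% of 11423 genes), and 1 lower, Cdkn1a (5.06%). Endothelial-like cells had 2 of 9 higher, Gdf15 and Phlda3 (7.26% of 9518 genes), and 2 lower, Cdkn1a and Cdkn1c (3.78%). Macrophage-like cells had 2 of 7 higher, Cdkn1c and Trp53inp1 (5.59% of 8361 genes), and 0 lower (5.85%), and red blood cell-like cells had 0 of 3 higher (14.0% of 1276 genes) and 1 lower, Cdkn1c (11.3%).

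In the GFP- sort, endothelial-like cells had 0 of 9 members higher (12.8% of 12737 genes) and 2 lower, Cdkn1c and Gdf15 (5.48%), and pericyte-like cells had 0 of 7 higher (8.88% of 6454 genes) and 1 lower, Cdkn1a (9.17%). Red blood cell-like cells had 0 of 4 higher (3.12% of 3205 genes) and 3 lower, Cdkn1a, Cdkn1c and Mdm2 (54.7%), a class in which the median of all genes was itself shifted to a log2 ratio of -0.63. Mdm2 there had 23 and 30 UMIs (-1.32, -2.15 to -0.47), and -0.59 under median-of-ratios scaling, which removes such a shift.

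**Figure D2:**
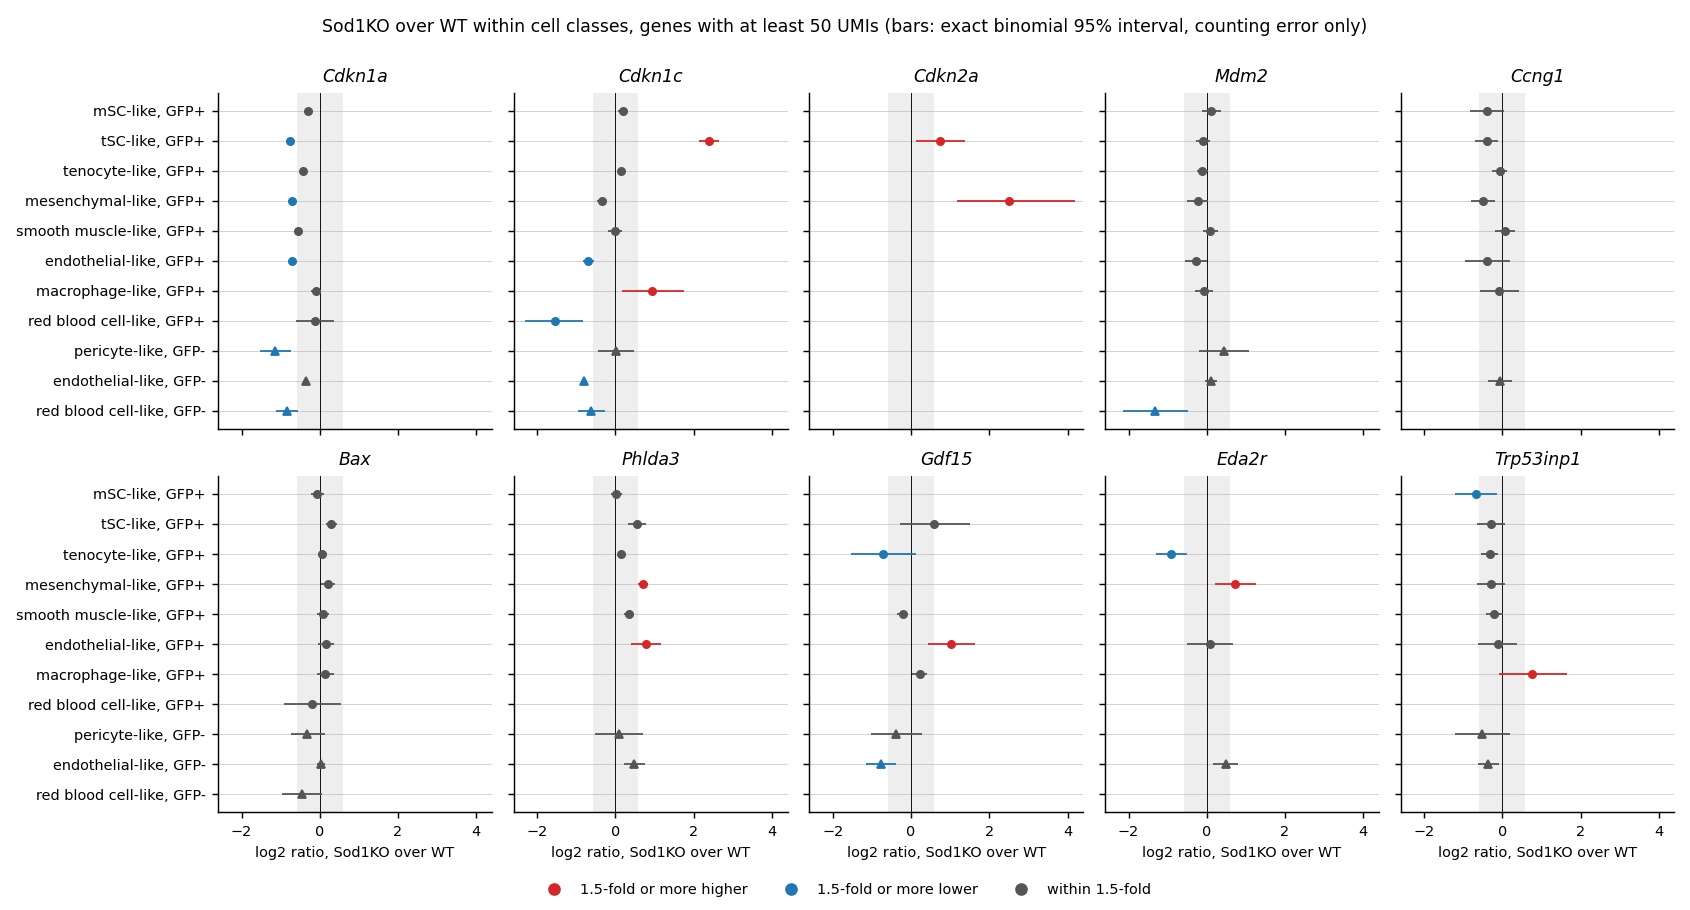
Log2 ratio of Sod1KO over WT for each member in the 11 class and sort combinations, with bars for the 95% counting interval; red and blue points are at least 1.5-fold higher and lower and the grey band is under 1.5-fold. Cdkn1a lay below 0 in all 11 rows, whereas Mdm2 in GFP+ classes stayed between -0.27 and 0.12.

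Cdkn1a was lower in the Sod1KO library in 8 of 8 GFP+ classes and 3 of 3 GFP- classes. Of the 3 members compared in every class (Cdkn1a, Cdkn1c and Bax), it was the one below 0 throughout, and none was above 0 throughout. Of all genes compared in every GFP+ class, 6.81% of 1116 were lower by any amount in all 8, and 3.67% were higher. Over both sorts the shares were 5.55% and 0.636% of 1100 genes. The difference was largest in the GFP+ sort in tSC-like cells, at 157 CPM (148 to 167) in WT and 93.3 CPM (87.9 to 99.0) in Sod1KO, a log2 ratio of -0.75 (-0.88 to -0.63), or 1.68-fold, and -0.69 after subtraction of 10% ambient RNA.

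Mesenchymal-like cells were at 332 CPM of Cdkn1a in WT and 201 CPM in Sod1KO (-0.72, -0.82 to -0.63), and endothelial-like cells at 767 and 471 CPM (-0.70, -0.79 to -0.61). Smooth muscle-like cells were at 614 and 420 CPM (-0.55, -0.61 to -0.49), tenocyte-like cells at 145 and 107 CPM (-0.43, -0.50 to -0.36), and mSC-like cells at the values given above (-0.30, -0.35 to -0.26). Under 1.5-fold, these are differences of these libraries beyond counting error alone. In macrophage-like cells (405 and 379 CPM, -0.10, -0.22 to 0.03) and red blood cell-like cells (226 and 206 CPM, -0.13, -0.61 to 0.36) the difference was within counting error. With the stricter cell filter (over 1000 genes and under 5% mitochondrial UMIs) the ratios of tSC-like and endothelial-like cells were -0.57 and -0.52, under 1.5-fold, and that of mesenchymal-like cells was -0.53 without the clusters of which 1 library held over 80%.

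In the GFP- libraries, from the same pools of mice, Cdkn1a was at 667 and 526 CPM in endothelial-like cells of WT and Sod1KO (-0.34, -0.39 to -0.30) and at 149 and 67.9 CPM in pericyte-like cells (-1.14, -1.54 to -0.73, 90 and 124 UMIs). Red blood cell-like cells were at 393 and 219 CPM (-0.84, -1.12 to -0.55), which came to -0.12 under median-of-ratios scaling.

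By cluster, Cdkn1a was lower in Sod1KO in 23 of 28 GFP+ clusters compared, 6 of them past 1.5-fold, and higher in 5, 2 past 1.5-fold, with a median log2 ratio of -0.27. In GFP- it was lower in 7 of 12. The share of all genes with such counts by cluster was not determined, for Cdkn1a or for the other members. Within tSC-like cells, cluster 10, led by Ucn2, Olig1, Btc, Kcnj10 and Ngfr, had 394 CPM in 38 WT cells and 85.6 CPM in 567 Sod1KO cells (-2.20, -2.49 to -1.91). Cluster 12, led by Bche, Ajap1 and Col20a1, had 105 and 57.4 CPM (-0.87, -1.12 to -0.62), and cluster 33, led by Gfra3 and Scn7a, had 1098 CPM in 27 cells and 446 CPM in 29 cells (-1.30, -1.64 to -0.97). The other 2 tSC-like clusters were not lower in Sod1KO, with cluster 35 at 184 and 212 CPM on 29 and 192 UMIs and cluster 31 at 0 and 28.5 CPM on 0 and 13 UMIs. Among endothelial-like cells, cluster 1 (led by Nos2, Car4 and Gpihbp1) was at 739 and 384 CPM (-0.94), while cluster 9 was at 1067 and 959 CPM (-0.15). The mSC-like cluster 2 had 1675 and 1385 CPM (-0.27). Cluster 8 had 800 and 393 CPM (-1.03). It raised all 10 mSC markers but stayed unnamed, because another class had more markers among its top genes, which included the perineurial Cldn1 and Moxd1.

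Genes that respond to glucocorticoids, and immediate early genes that tissue dissociation induces, were counted beside Cdkn1a. The median log2 ratio of the 9 glucocorticoid-responsive genes (Tsc22d3, Fkbp5, Per1, Sgk1, Klf9, Zbtb16, Dusp1, Nfkbia and Errfi1) was below 0 in each of the 11 comparisons, at -0.37 in mSC-like cells (3 of 8 compared lower by 1.5-fold, 0 higher), -0.47 in tSC-like cells (4 of 9 lower, 0 higher), -0.57 in tenocyte-like, -0.37 in mesenchymal-like and -0.56 in GFP+ endothelial-like cells, against all-gene medians of -0.03 to 0.02 in these classes. Their summed level was 1712 CPM in WT and 1066 CPM in Sod1KO mSC-like cells and 987 and 611 CPM in tSC-like cells. Summed immediate early genes were at 16112 and 13577 CPM in mSC-like cells and at 9364 and 7849 CPM in tSC-like cells, with list medians of -0.14 and -0.21. The immediate early median was above 0 in smooth muscle-like (0.09) and GFP+ red blood cell-like cells (0.04). It was below 0 in the other comparisons, at -0.51 in pericyte-like and -0.28 in GFP- endothelial-like cells. The part of these lists in the Cdkn1a difference was not tested.

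**Figure D3:**
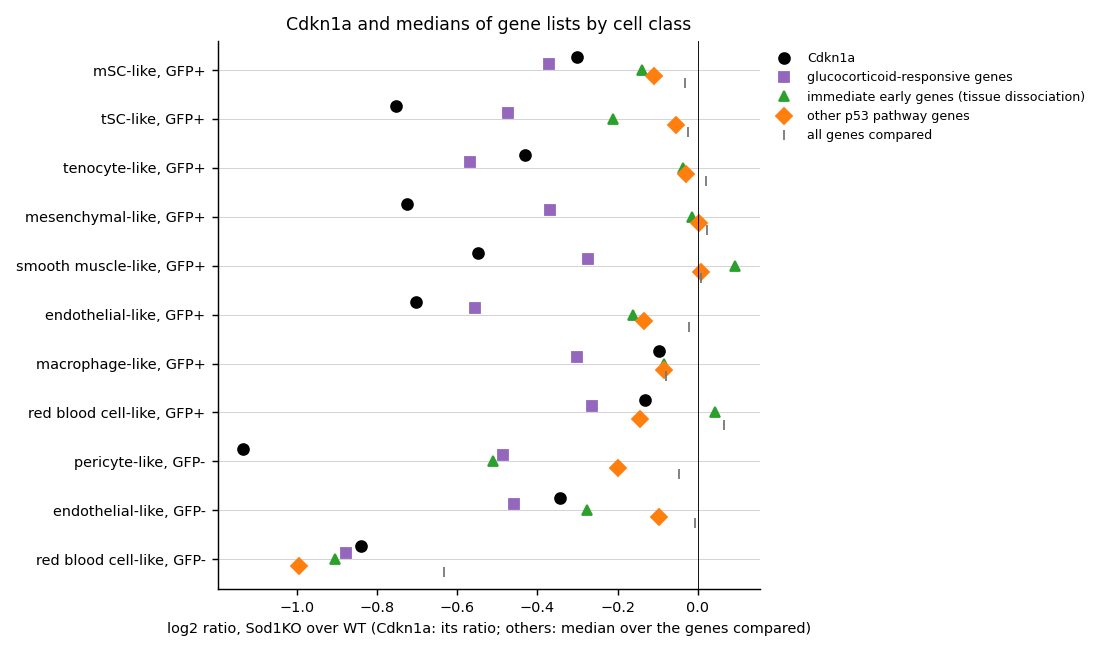
Log2 ratio of Sod1KO over WT by class for Cdkn1a and, beside it, the median of the glucocorticoid-responsive, immediate early and other p53 pathway genes and of all genes compared. Cdkn1a and the glucocorticoid median both lay below 0 in every class. The p53 pathway median ran from -0.99 in GFP- red blood cell-like to 0.008 in smooth muscle-like cells. In mSC-like cells it was -0.11 against -0.03 for all genes.

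Other p53 pathway genes had calls in both directions, and most medians of the list lay below those of all genes. The list median was -0.20 against -0.05 in pericyte-like and -0.13 against -0.02 in GFP+ endothelial-like cells. It was 0.003 against 0.02 in mesenchymal-like and 0.008 against 0.007 in smooth muscle-like cells. Of 38 listed, 25 could be compared in mSC-like cells, with 10 above 0 (median log2 ratio, -0.11). By 1.5-fold 2 were higher and 4 lower, against 3.76% and 4.35% of all genes. In tSC-like cells 30 were compared, with 14 above 0 (median, -0.06). Of these, 4 were higher and 3 lower, against 10.1% and 12.6% of all genes. In GFP- endothelial-like cells 35 were compared, with 14 above 0 (median, -0.10). There 5 were higher and 4 lower, against 12.8% and 5.48% of all genes. The largest in mSC-like cells were Pvt1, a noncoding RNA beside Myc, at 5.36 and 25.2 CPM in WT and Sod1KO (2.23, 1.69 to 2.81), Ddit4, an inhibitor of mTOR that glucocorticoids also induce, at 39.5 and 19.8 CPM (-1.0, -1.36 to -0.65), and the adenylate kinase Ak1 at 13.4 and 25.2 CPM (0.91, 0.50 to 1.32). Trp53, which encodes p53 itself, was at 42.6 and 43.8 CPM in mSC-like cells (0.04, -0.23 to 0.31) and at 46.2 and 86.8 CPM in tSC-like cells (0.91, 0.72 to 1.10).

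Mdm2 was within 1.5-fold in all 7 GFP+ classes compared. In mSC-like cells it stood at 51.9 CPM in WT and 56.3 CPM in Sod1KO (0.12, -0.12 to 0.35), and in tSC-like cells at 62.5 and 58.3 CPM (-0.10, -0.28 to 0.08). Its lowest GFP+ ratio was -0.27 (-0.55 to 0.01), in endothelial-like cells. In GFP- the Mdm2 ratio was 0.43 (-0.19 to 1.09) in pericyte-like and 0.10 (-0.06 to 0.26) in endothelial-like cells, beside the lower call in red blood cell-like cells. By cluster Mdm2 was lower in 15 and higher in 6 of 21 in GFP+ (median log2 ratio, -0.11). In GFP- it was higher in 9, 2 past 1.5-fold, and lower in 1 of 10 (median, 0.31). Ccng1 was also within 1.5-fold in 7 of 7 GFP+ classes and was below 0 in 6 of them, with 25.4 and 19.2 CPM in tSC-like cells (-0.40, -0.70 to -0.10) and 30.2 and 21.4 CPM in mesenchymal-like cells (-0.50, -0.81 to -0.19). By cluster Ccng1 was lower in 12 of 13 GFP+ clusters, none past 1.5-fold, with a median log2 ratio of -0.09. In GFP- it was lower in 4 and higher in 3 of 7 clusters, 2 of the higher ones past 1.5-fold. How many of all genes had such cluster counts was not determined.

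Bax was within 1.5-fold in all 11 comparisons and above 0 in 6 of 8 GFP+ classes. The ratio was highest in tSC-like cells, at 99.5 and 122 CPM (0.29, 0.15 to 0.43), where it came to 0.08 without the clusters held mostly by 1 library, and in mSC-like cells the values were 108 and 103 CPM (-0.07, -0.24 to 0.10). Phlda3 was above 0 in 6 of 6 GFP+ and 2 of 2 GFP- classes, and the share of all genes doing so was not counted. By cluster Phlda3 was split, higher in 13 and lower in 8 of 21 GFP+ clusters (median log2 ratio, 0.10). In GFP- clusters it was higher in 5 and lower in 3 of 8. It was past 1.5-fold in endothelial-like cells, at 27.5 and 47.1 CPM (0.78, 0.40 to 1.16), and in mesenchymal-like cells, at 124 and 201 CPM (0.70, 0.57 to 0.84). In red blood cell-like cells, below the UMI minimum, Phlda3 had 4 and 29 UMIs in GFP+ (14.6 and 63.7 CPM). In GFP- it went the other way there, at 17 and 27 UMIs (41.0 and 20.0 CPM). The part of free RNA in the ratios was not tested. In mSC-like cells Phlda3, at 144 and 146 CPM, was within counting error (0.02, -0.12 to 0.17). Neither call held under all settings. For endothelial-like cells the ratio was 0.13 with no doublet removal, 0.25 without clusters held over 80% by 1 library and 0.26 at the lower clustering resolution. For mesenchymal-like cells the difference lay in cluster 13 (led by Smim41, Saa1, Cxcl14 and Hsd11b1), at 127 and 324 CPM, whereas cluster 4 (Myoc and Fst) was at 194 and 160 CPM and cluster 20 (Pi16) at 38.1 and 18.6 CPM. Without the clusters held over 80% by 1 library, which takes out cluster 13, the class ratio was -0.040.

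Trp53inp1 was below 0 in 6 of 7 GFP+ and 2 of 2 GFP- classes, and the share of all genes doing so was not counted. By cluster it was lower in 12 and higher in 5 of 17 GFP+ clusters, and lower in 5 and higher in 2 of 7 GFP- clusters. It was past 1.5-fold in mSC-like cells, at 15.5 and 9.77 CPM on 110 and 43 UMIs (-0.67, -1.21 to -0.15, -1.42 with the stricter cell filter). Macrophage-like cells went the other way, at 7.39 and 12.6 CPM on 18 and 38 UMIs (0.77, -0.08 to 1.66), within counting error.

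Gdf15 was not called consistently between sorts of the same cell type. In GFP+ endothelial-like cells it was at 10.5 and 21.5 CPM (1.03, 0.44 to 1.65), but 46 of the 72 Sod1KO UMIs came from 1 cell, and the ratio was -0.14 without the top cell of each library. In GFP- endothelial-like cells it was at 12.7 and 7.42 CPM (-0.78, -1.15 to -0.40), and at -0.35 with no doublet removal. In tenocyte-like cells 14 of 27 WT UMIs came from 1 cell, and the ratio of -0.71 (-1.53 to 0.12) became 0.050 without the top cells. In 2 named GFP+ classes where Gdf15 was abundant the ratios were small, at 162 and 188 CPM in macrophage-like cells (0.22, 0.03 to 0.41) and 95.8 and 82.5 CPM in smooth muscle-like cells (-0.22, -0.35 to -0.08). Unnamed GFP+ clusters 22 (170 and 97.3 CPM), 11 (118 and 74.5 CPM) and 5 (48.1 and 18.2 CPM) were lower in Sod1KO. In GFP- cluster 11 was at 66.1 and 67.7 CPM. By cluster Gdf15 was lower in 5 and higher in 3 of 8 in GFP+, and lower in 6 and higher in 1 of 7 in GFP-. All kept cells were at 31.7 and 20.4 CPM in GFP+ and 38.7 and 27.1 CPM in GFP-.

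Eda2r was at 6.19 and 3.31 CPM in tenocyte-like cells on 118 and 103 UMIs (-0.90, -1.30 to -0.51), with its lowest ratio in cluster 15 (10.9 and 3.45 CPM, -1.65). In mesenchymal-like cells it was at 8.22 and 13.5 CPM (0.72, 0.20 to 1.25), again through cluster 13 (6.50 and 21.8 CPM), and the ratio without the clusters held over 80% by 1 library was -0.14. GFP+ endothelial-like cells had 14.5 and 15.2 CPM (0.07, -0.52 to 0.66). Those of GFP- had 14.5 and 20.2 CPM on 101 and 484 UMIs (0.48, 0.17 to 0.81), under 1.5-fold.

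Cdkn1c showed the widest spread between classes. In tSC-like cells it was at 23.8 CPM (20.1 to 27.9, 149 UMIs in 392 cells) in WT and at 125 CPM (118 to 131, 1475 UMIs in 924 cells) in Sod1KO, a log2 ratio of 2.39 (2.15 to 2.64), or 5.24-fold. The UMIs were concentrated in few cells, with 27.7% of Sod1KO tSC-like cells holding any and 22 cells holding 50% of them. Per cell, WT tSC-like cells held 0.380 UMIs, between the 0.159 of macrophage-like and the 0.469 of red blood cell-like cells of that library, and the share with a UMI was 16.8%, against 10.6% and 22.4%. Sod1KO tSC-like cells held 1.60 UMIs per cell, above the 0.240 and 0.232 of these classes in the Sod1KO GFP+ library. The ratio was 1.05 with no doublet removal and 4.11 after subtraction of 10% ambient RNA.

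The tSC-like classes of the genotypes were made of different clusters. Cluster 10 held 61.4% of Sod1KO and 9.69% of WT tSC-like cells, and cluster 12 held 22.1% and 79.1%. Cdkn1c in cluster 10 was at 122 CPM on 37 UMIs in WT and 188 CPM on 1366 UMIs in Sod1KO (0.63, 0.16 to 1.14), which was 24.8% and 92.6% of the UMIs of the class. In cluster 12 it was at 19.8 and 16.8 CPM (-0.23). Without the clusters held over 80% by 1 library the class ratio was -0.26. Cdkn1c was highest in cluster 10 of the 5 tSC-like clusters in both libraries. The part of the cluster makeup in the difference of the class was not tested.

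**Figure D4:**
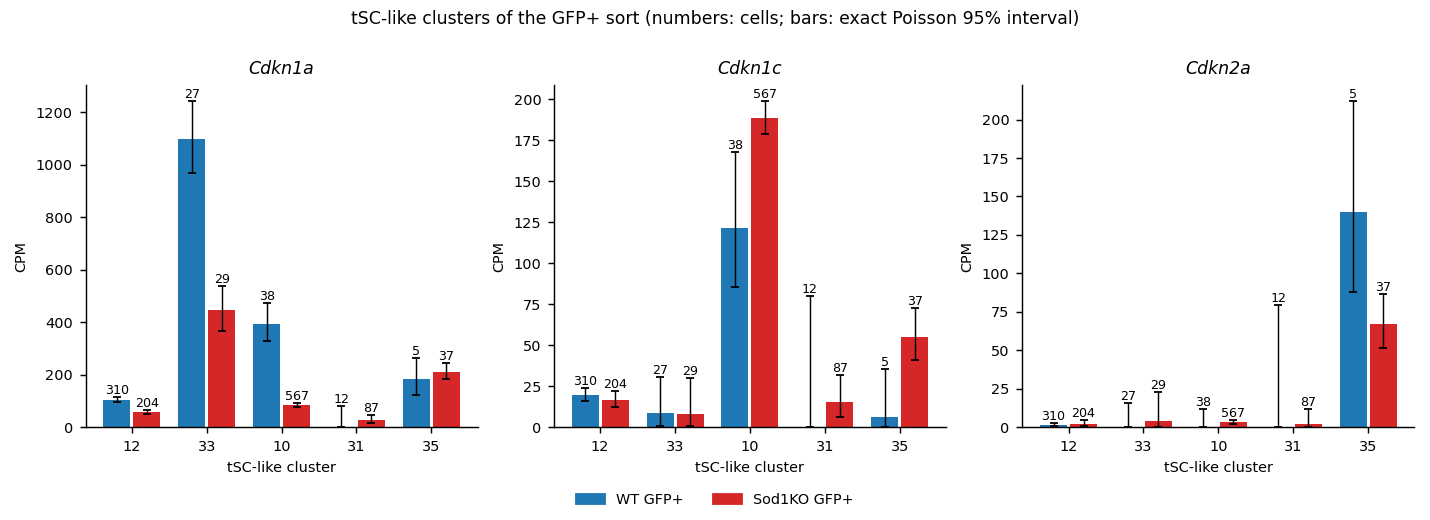
CPM of Cdkn1a, Cdkn1c and Cdkn2a in the 5 tSC-like clusters of the WT and Sod1KO GFP+ libraries; bars are levels, error bars the exact Poisson 95% interval and the number above each bar counts its cells. Cdkn1c was high in cluster 10 (122 and 188 CPM), Cdkn1a in cluster 33 (1098 and 446 CPM) and Cdkn2a in cluster 35 (140 and 67.4 CPM).

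In endothelial-like cells Cdkn1c was lower in Sod1KO in both sorts, at 312 CPM (294 to 331) and 192 CPM (178 to 208) in GFP+ (-0.70, -0.84 to -0.56) and at 480 CPM (464 to 497) and 276 CPM (269 to 283) in GFP- (-0.80, -0.86 to -0.74). The mean of per-cell CPM gave -0.56 in GFP-. In cluster 1 the GFP- values were 523 and 288 CPM (-0.86), and in cluster 9 they were 406 and 377 CPM (-0.11). In mSC-like cells Cdkn1c was at 250 and 283 CPM (0.18, 0.07 to 0.29), and in smooth muscle-like cells at 54.0 and 53.4 CPM (-0.02, -0.19 to 0.16). Macrophage-like cells had 8.62 and 16.5 CPM on 21 and 50 UMIs (0.94, 0.18 to 1.75), with 0.159 and 0.240 UMIs per cell, against 0.469 and 0.232 in red blood cell-like cells. Mesenchymal-like cells had 179 and 140 CPM (-0.35, -0.48 to -0.23). The WT GFP+ total of Cdkn1c also held 1 cell of unnamed cluster 16 with 451 UMIs, or 3.60% of the library's Cdkn1c.

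The sorts of 1 genotype also differed for Cdkn1c. Perineurial-like cells of Sod1KO were at 107 CPM in GFP+ and 418 CPM in GFP- (log2 ratio of GFP+ over GFP-, -1.97, -2.23 to -1.71), and mesenchymal-like cells at 140 and 286 CPM (-1.03, -1.13 to -0.94). Endothelial-like cells of WT had 312 and 480 CPM (-0.62, -0.72 to -0.52). These gaps between 2 libraries of 1 pool are as large as many of the genotype ratios above. Across 9 class and genotype pairs, 8.23% to 51.7% of genes were 1.5-fold apart between the sorts, and 0 to 3 members of each.

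Cdkn2a was scarce, with 311 UMIs in all, and in tSC-like cells most of them lay in cells with UMIs of proliferation genes. In tSC-like cells it was at 4.79 CPM (30 UMIs in 11 cells) in WT and 7.95 CPM (94 UMIs in 57 cells) in Sod1KO (0.73, 0.12 to 1.37, or 1.35 by the mean of per-cell CPM). Cluster 35, led by histone genes, Top2a, Cenpf and Hmmr and by Cdkn2a itself, held 22 of the 30 UMIs in 5 WT cells (140 CPM) and 61 of the 94 in 37 Sod1KO cells (67.4 CPM). No Cdkn2a UMI was seen in red blood cell-like cells of any library. The 49 pericyte-like cells of Sod1KO GFP+ held 2, those of the other libraries 0, and the mSC-like cells of WT and Sod1KO held 1 and 0.

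Cells with at least 5 UMIs over 12 proliferation genes, a limit set after the data were seen, were then set beside the rest. In tSC-like cells Cdkn2a was at 83.0 CPM (52.0 to 126) in 9 such WT cells and at 1.33 CPM in the 383 others, and in Sod1KO at 47.7 CPM (37.0 to 60.6) in 57 cells and 2.59 CPM in 867. Their median depth was 25280 against 12209 UMIs in WT and 20123 against 9409 in Sod1KO, and 7 and 18 cells had 3 to 6 proliferation UMIs, near the limit. In GFP+ endothelial-like cells all 10 Sod1KO UMIs and all 3 WT UMIs of Cdkn2a fell in such cells (21 and 2 cells), and in GFP- the counts were 1 of 3 UMIs in WT (11 cells) and 24 of 31 in Sod1KO (115 of 1596 cells). The 13 and 25 such tenocyte-like cells held 0 Cdkn2a UMIs.

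**Figure D5:**
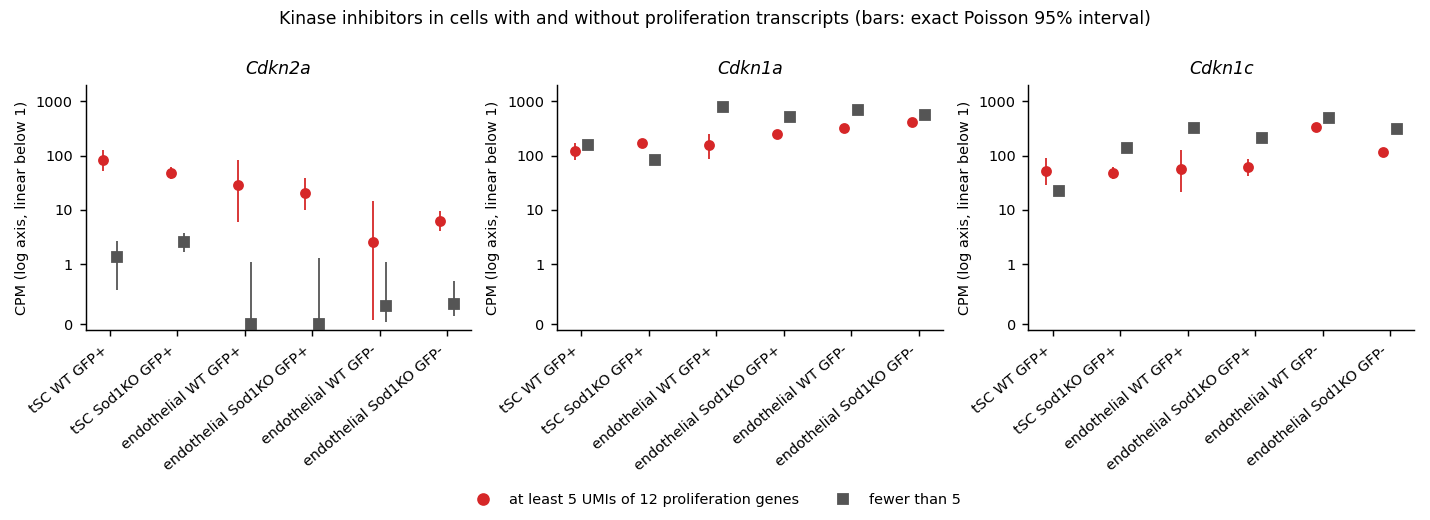
CPM of Cdkn2a, Cdkn1a and Cdkn1c in cells with at least 5 UMIs of proliferation genes and in the other cells of the tSC-like and endothelial-like classes, by library, with exact Poisson 95% intervals. Cdkn2a was higher in the cells above that limit of each pair, and endothelial Cdkn1a lower (154 CPM, on only 2 cells, against 786 CPM in WT GFP+).

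Cdkn1a and Cdkn1c showed the opposite arrangement in endothelial-like cells. Cdkn1a was at 154 CPM in the only 2 cells above that limit and 786 CPM in the other GFP+ WT cells. It was at 247 and 509 CPM in GFP+ Sod1KO, 316 and 688 CPM in GFP- WT and 411 and 547 CPM in GFP- Sod1KO. Cdkn1c was at 118 and 306 CPM in GFP- Sod1KO. In tSC-like cells the direction was not shared, since Cdkn1a was at 121 and 159 CPM in WT but at 172 and 82.8 CPM in Sod1KO.

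Mesenchymal-like cells had the other group of Cdkn2a UMIs, at 0.956 CPM (5 UMIs) in WT and 5.43 CPM (49 UMIs in 26 cells) in Sod1KO GFP+ (2.51, 1.19 to 4.19). Of the 49, 48 lay in cluster 13 (4.06 and 13.3 CPM, 1.71, 0.38 to 3.39), and 2 in cells with proliferation UMIs. By averaging the CPM of single cells the ratio was 0.34, and leaving out the top cell of each library it was 3.61. The Sod1KO GFP- mesenchymal-like cells were at 0.540 CPM.

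The other CDK inhibitors of the list were Cdkn1b (p27), Cdkn2b (p15), Cdkn2c (p18) and Cdkn2d (p19Ink4d). In mSC-like cells 3 were compared and none passed 1.5-fold, with Cdkn1b at 785 and 586 CPM (-0.42) and Cdkn2d at 106 and 130 CPM (0.29). In tSC-like cells 1 of 4 was higher, Cdkn2b at 1.44 and 5.83 CPM (2.02, 1.01 to 3.21) on 9 and 69 UMIs, and Cdkn1b was at 91.1 and 89.6 CPM (-0.02). In mesenchymal-like cells 3 of 4 were higher, among them Cdkn2b at 7.84 and 16 CPM (1.02). Cdkn2c was at 268 CPM in WT tSC-like cells with at least 5 proliferation UMIs and at 101 CPM in the others.

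Genes of the cell cycle engine were also counted. All 12 proliferation genes were 1.5-fold higher in Sod1KO tSC-like cells (median log2 ratio, 1.47) and endothelial-like cells of GFP+ (2.17) and GFP- (1.05). The all-gene medians were -0.03, -0.02 and -0.01, and 10.1%, 7.26% and 12.8% of all genes were higher. Cluster 35, led by histone genes, Top2a and Cenpf, held 5 of 392 WT and 37 of 924 Sod1KO tSC-like cells. Endothelial-like cluster 29, led by Pimreg, Ccna2 and Cep55, held 2 of 266 and 16 of 253 cells in GFP+. In GFP- it held 7 of 490 and 81 of 1596. The part of the cluster makeup in these differences was not tested. In tSC-like cells 7 of 16 cyclins and CDKs were higher and 1 lower, with Cdk1, the mitotic kinase, at 8.31 and 33.1 CPM (1.99, 1.57 to 2.44) and Ccnb1, its cyclin, at 3.19 and 13.3 CPM (2.05, 1.38 to 2.80). Pclaf, a factor bound to the replication clamp, was at 2.40 and 33.5 CPM (3.80, 3.06 to 4.66). In mSC-like cells only 1 proliferation gene could be compared, and Ccnd1, cyclin D1, was at 9.45 and 22.0 CPM (1.22, 0.76 to 1.69).

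The remaining lists were mixed in Schwann cells. In mSC-like cells, 6 integrated stress genes were compared with 0 past 1.5-fold (median, -0.27), 5 senescence associated secreted genes with 0 higher and 2 lower (-0.57), and 6 imprinted growth genes with 1 higher and 2 lower (-0.24). In tSC-like cells the counts were 3 higher and 0 lower of 7 integrated stress genes (-0.10), 2 and 2 of 7 secreted genes (-0.40) and 1 and 2 of 6 imprinted genes (-0.37). In tSC-like cells 47 list genes passed 1.5-fold and in mSC-like cells 17. Of all genes, 10.1% were higher and 12.6% lower in tSC-like cells, and 3.76% and 4.35% in mSC-like cells. Most lists also had more genes compared in tSC-like cells, such as 12 proliferation genes against 1. Among the 17 in mSC-like cells were Tsc22d3 (GILZ, a glucocorticoid target) at 142 and 56.8 CPM (-1.33, -1.53 to -1.12) and Klf9 at 674 and 352 CPM (-0.94, -1.02 to -0.85). Sgk1, a kinase of the same response, was at 319 and 131 CPM there (-1.28, -1.41 to -1.15). In tSC-like cells Zbtb16, also glucocorticoid-induced, was at 22.2 and 6.26 CPM (-1.83, -2.25 to -1.41).

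Likeness of pattern was measured by Pearson's r of log2(CPM + 5) over 30 class-by-library units, which share libraries and depth, and is given as a description. The genes most like Cdkn1a were P2ry2 (0.84), Prr15 (0.79), Slc3a2 (0.76), Pqlc1 (0.76) and Fryl (0.75), and those most like Cdkn1c were Slc50a1 (0.81), Fam171a2 and Egln1 (0.79), and Tmem59 and Imp3 (0.78). For Mdm2 they were Vac14 (0.90), Med15 (0.89), Vps4b (0.88), Ikbkb and Atp6v1h (0.87), and for Ccng1 Selenbp1 and Hnmt (0.75), and Pts, Aldh7a1 and Arap1 (0.74). Tagln2 (0.89), Eif6 (0.87), Lrrc8c and Ywhah (0.85) and Nipsnap3b (0.84) were most like Bax. Phlda3 was followed by Mypop (0.89), Oplah (0.88), Mfap5 and Slc4a4 (0.86) and Dgcr6 (0.85), and Gdf15 by Tnfrsf11a (0.93), Itprip (0.90), Pde1b (0.82) and Pacsin2 (0.81). Eda2r was followed by Plcg1 (0.84), Slc10a6 (0.83), Hmcn1 and Mest (0.82) and Mex3b (0.81), and Trp53inp1 by Pcnx4 and Kank2 (0.85), Ldb1 (0.83), and Aldh4a1 and Cherp (0.82). Between members r was at most 0.49, for Mdm2 and Bax, and at least -0.60, for Cdkn1c and Gdf15.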

How the data were processed

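The 4 droplet libraries (GFP+ and GFP- sorts of WT and Sod1KO, 1 each) were read from the UMI counts that the authors deposited, whole numbers per gene and barcode that are not normalized. The submitters' processing notes list Cell Ranger 7.1.0, Seurat 4.30 and mm10, while the methods name a later Cell Ranger and a later mouse build beside the older one. The authors' ambient RNA correction, doublet calls, integration and clusters were not used here.

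Cells with more than 200 genes and under 10% mitochondrial UMIs, the study's filter, were kept. Doublets were removed per library by a score against simulated doublets over 50 neighbors, at 0.8% per 1000 barcodes (210, 366, 27 and 287 cells of WT GFP+, Sod1KO GFP+, WT GFP- and Sod1KO GFP-). Counts scaled to 10000 per cell, 2000 variable genes (132 member and list genes left out), 30 principal components, 20 neighbors and Leiden clustering at resolution 1 gave the clusters. A class name needed at least 3 of its markers, each above 20 CPM and 2-fold, and at least 50% of its list. A cluster stayed unnamed where another class had more markers among the 10 top genes by fold. It also stayed unnamed where the list of another class reached 50%, closely related pairs such as mSC and tSC aside. Shallow clusters with no marker among the top genes were left unnamed too. These limits were set after looking at the clusters. UMIs were summed per class and library and divided by the total as CPM, with exact Poisson 95% intervals, and ratios carry exact conditional binomial 95% intervals. Intervals and the floor of 3 UMIs cover counting error only, and with 1 library per group no replicated test was run. The calculation of the intervals was checked on simulated Poisson counts. That setting leaves out the clumping of UMIs in single cells, so it does not show how the intervals hold for these data. All 10 members were named. Of related lists, at most 10 genes past 1.5-fold in each of mSC-like and tSC-like cells were named by rule, and other genes named (Trp53, Cdkn1b, Cdkn2b, Cdkn2c and Cdkn2d outside tSC-like cells) were chosen after their values were seen. One gene that the likeness rule named is not reported here. The members and lists were chosen with earlier results of these data known. Promoter windows and positions came from RefSeq (GRCm38.p6). Clustering ran in leidenalg 0.10.2 on python-igraph 0.11.9 and scikit-learn 1.9.0, tables in pandas 2.3.3, intervals in SciPy 1.17.1 with NumPy 2.4.6 and plots in matplotlib 3.10.9, under Python 3.11.15.

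Alternatives were median-of-ratios scaling, totals without Gm42418 and mitochondrial genes, no doublet removal, a stricter cell filter, subtraction of 10% ambient RNA, the mean of per-cell CPM, leaving out clusters held over 80% by 1 library, resolution 0.5, other UMI minimums, a fold of 2 and, chosen after seeing the data, leaving out the top cell of each gene.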

Additional observations from a re-analysis of the deposited data

Results flagged for a closer look

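Cdkn1c, Gdf15, Eda2r and Trp53inp1 had calls of opposite sign in 2 classes of the GFP+ sort, which is what flagged them. The differences between classes were not tested. Cdkn1c was at a log2 ratio of Sod1KO over WT of 2.39 in tSC-like and -1.56 in red blood cell-like cells, the latter on 46 and 26 UMIs. Gdf15 was at 1.03 in endothelial-like and -0.71 in tenocyte-like cells, and both signs turned without the top cell (-0.14 and 0.050). Eda2r was at 0.72 in mesenchymal-like and -0.90 in tenocyte-like cells, both from the same 2 libraries. Trp53inp1 was at 0.77 in macrophage-like and -0.67 in mSC-like cells, the first with an interval that reached below 0 (-0.08 to 1.66).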

How the results depend on the processing

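No paired analysis was possible because each group holds 1 library. Over the GFP+ classes 8 member ratios were 1.5-fold lower and 9 higher, and over the GFP- classes 6 and 0. With the stricter cell filter 5 GFP+ and 3 GFP- ratios were lower. With no filter beyond the floor 13 and 10 were lower and 16 and 2 higher. With at least 200 UMIs 5 GFP+ were lower and 3 higher. At a fold of 2, 1 GFP+ and 2 GFP- were lower and 3 GFP+ higher. GFP+ higher calls numbered 5 with no doublet removal and 3 without clusters held over 80% by 1 library, GFP- lower calls 3 at resolution 0.5 and GFP- higher calls 1 by the mean of per-cell CPM. Other settings left these counts within 1.5 times. Signs turned for Cdkn1c in tSC-like (-0.26), Phlda3 in mesenchymal-like (-0.040) and Eda2r in mesenchymal-like cells (-0.14) without the clusters held mostly by 1 library, where the setting itself removes the cells that carry the difference. They also turned for Gdf15 in GFP+ endothelial-like cells with no doublet removal (-0.049), the stricter filter (-0.088) and no top cell (-0.14), for Gdf15 in tenocyte-like cells with no top cell (0.050), and for Cdkn1c in GFP- red blood cell-like cells under median-of-ratios scaling (0.10). For these the cause was not tested. Leaving out a replicate was not possible with 1 library per group, so spread between mice, pooling and library preparation are all unmeasured, and low counts limit Cdkn2a, Eda2r and Gdf15 most.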
